A study of Callithrix jacchus with 6 samples.

Results

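ADARB2 interneurons of the common marmoset (Callithrix jacchus) hippocampus were chosen by a gate on raw counts of unique molecular identifiers (UMIs, the tags that count captured RNA molecules). A barcode was kept with at least 2000 UMIs in all, at least 2 UMIs of GAD1 plus GAD2, at least 5 UMIs of ADARB2, no UMI of LHX6, more ADARB2 than LHX6 plus NXPH1 UMIs, and at most 1 UMI of SLC17A7. The gate kept 548 of 46582 barcodes, 1.18% of all and 1.51% of the 36360 barcodes with at least 2000 UMIs. They came from 6 libraries, with 85, 54 and 79 cells in sevoflurane replicates 1 to 3 and 121, 110 and 99 cells in control replicates 1 to 3.

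The sevoflurane group received the inhaled anaesthetic sevoflurane and the control group oxygen, both labelled 6 h, and whether this is the length of exposure or the time of sampling is not stated. The animals were aged per the series title, with no strain, sex or exact age in the labels. Both groups share the preparation, in which hippocampi were digested with collagenase, frozen and later run on the 10x Genomics droplet system. Nothing in the labels ties a replicate to an animal of its own, so each p-value measures the spread between these libraries, which may be technical.

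Cortical and hippocampal GABA neurons arise in the ventral forebrain of the embryo. Those of the medial ganglionic eminence keep the transcription factor LHX6 and include parvalbumin and somatostatin cells. Those of the caudal ganglionic eminence lack LHX6, carry the RNA-binding protein ADARB2, and include VIP cells, cholecystokinin basket cells with the cannabinoid receptor CNR1, and LAMP5 neurogliaform cells. Many LAMP5 cells secrete reelin, the glycoprotein encoded by RELN, and in the hippocampus neurogliaform cells release GABA onto the outer dendrites of pyramidal cells. The GABA-A receptor is a known target of sevoflurane.

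The summed UMIs of the cells were 744687, 498644 and 542719 in the sevoflurane libraries, against 938744, 959372 and 803641 in the control libraries. The median UMIs per cell were 8234, 8037 and 5974 after sevoflurane, against 6814, 8081.5 and 7523 in controls. No barcode of these cells occurred in more than 1 library. A doublet caller marked 23 of the 548 cells, 9 of them in sevoflurane replicate 3. Sevoflurane replicate 3 stood apart. Its summed profile correlated with the other 5 at Pearson's r of 0.887 to 0.920 (log2 CPM, across genes, which are not independent), and all other pairs of libraries at 0.930 to 0.960. Counts of changed genes, shares and named genes are therefore given with and without it where it changes a call or a value.

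The label was checked against genes that the rule did not use. GAD2, which makes GABA and which the rule asks for together with GAD1, was found in 90.9% of the cells, and this share is a description. In UMIs per 1000000 of the cells' summed UMIs (CPM), ADARB2 stood at 1449, 1474 and 1295 CPM in the sevoflurane libraries, against 1714, 1709 and 1757 CPM in the control libraries. These levels come from the rule and are a description. LHX6 interneurons (1554 cells) had the same limits on depth, GAD and SLC17A7 UMIs. They needed at least 1 LHX6 UMI, and at least 3 LHX6 plus NXPH1 UMIs that outnumbered the ADARB2 UMIs. Their gate was thus looser and allowed some ADARB2 UMIs, and their mean ADARB2 level over the 6 libraries was 35.4 CPM. NPAS1, a transcription factor of these cells, had 215, 219 and 88.4 CPM in the sevoflurane libraries, against 159.8, 150.1 and 142 CPM in the control libraries, and averaged 32.8 CPM in LHX6 interneurons. PROX1, which marks caudal interneurons and also dentate granule cells, had 43.0, 52.1 and 111 CPM after sevoflurane and 81.0, 47.9 and 49.8 CPM in controls. It averaged 10.1 CPM in LHX6 interneurons. Barcodes outside both classes had 46.2, 79.4 and 12.4 CPM after sevoflurane and 47.0, 17.4 and 51.3 CPM in controls. PROX1 thus did not set the ADARB2 interneurons apart from those barcodes in every library. HTR3A, a serotonin-gated channel subunit of caudal interneurons, had 12.1, 16.0 and 0 CPM after sevoflurane and 23.4, 30.2 and 32.4 CPM in controls. SP8 was found in 3.10% of the cells, VIP in 8.58%, LAMP5 in 7.66% and CNR1 in 8.21%. The 8 caudal interneuron markers summed to 427 to 491 CPM after sevoflurane and 383 to 477 CPM in controls, against 80.8 to 89.5 and 79.7 to 91.0 CPM in LHX6 interneurons. CCK, TAC3 and MOBP were not analysed here, since no feature carried these symbols.

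Of the given markers, RELN was found in 40.1% of the cells and IL1RAPL2, a synaptic adhesion receptor, in 46.2%, so neither marks every cell. IL1RAPL2 had 927, 1099 and 112 CPM in the sevoflurane libraries, against 1182, 1111 and 1256 CPM in the control libraries. All 3 sevoflurane libraries lay below the 3 control libraries, sevoflurane replicate 3 far below and the other 2 by little (log2 -0.79 ± 0.54 (SE), adjusted p = 0.724 by edgeR). Sevoflurane replicate 3 also had no UMI of HTR3A, CNR1 or NDNF, which allows up to 5.53 CPM there (3 counts of its summed UMIs), and the highest levels of KIT and SV2C. KIT, a receptor tyrosine kinase, stood at 34.9, 42.1 and 131 CPM after sevoflurane and 101, 33.4 and 67.2 CPM in controls. SV2C, a synaptic vesicle protein, stood at 25.5, 24.1 and 127 CPM after sevoflurane and 59.7, 27.1 and 33.6 CPM in controls. The lists of other cell types were low. NEUROD2, OLIG2 and ISL1 were at 0 in every library, and SLC17A7, limited by the rule, stood at 28.1 to 39.8 CPM, against a mean of 198 CPM in all other barcodes. The 6 microglia markers summed to 10.0 to 67.1 CPM after sevoflurane and 27.1 to 31.1 CPM in controls. The 5 ependymal and choroid markers summed to 1054, 311 and 75.5 CPM after sevoflurane, against 126, 250.2 and 210.3 CPM in controls. Most of the first value was HTR2C, a serotonin receptor of choroid plexus and of some neurons, at 869 CPM in sevoflurane replicate 1. TTR, which marks choroid plexus, was at 68.5 CPM in that library and at 0 to 1.84 CPM in the other 5. Both genes were also highest in that library in barcodes outside the ADARB2 and LHX6 interneurons. There TTR had 41.9 CPM, against 0.473 to 1.59 CPM in the other 5, and HTR2C 447 CPM, against 9.55 to 76.8 CPM. In LHX6 interneurons TTR had 23.9 CPM in that library and 0 to 1.82 CPM in the other 5. The part of this background in the values of the ADARB2 interneurons was not tested.

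**Figure D1:**
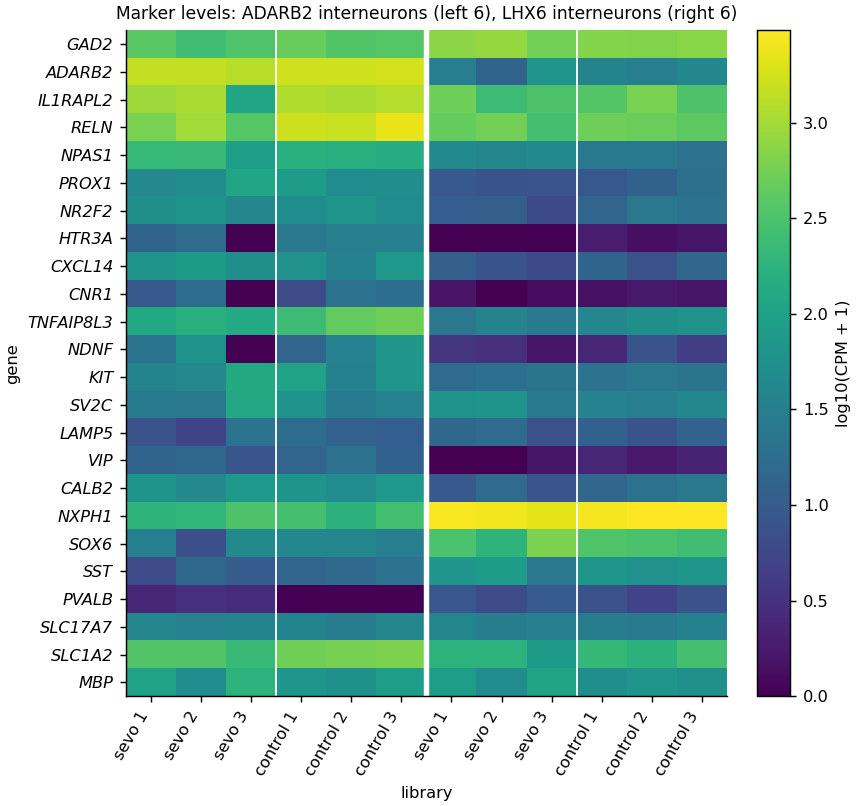
Levels of 24 marker genes in the summed UMIs of ADARB2 interneurons (left 6 columns) and LHX6 interneurons (right 6 columns), as log10(CPM + 1), with the 3 sevoflurane libraries left of the 3 control libraries in each block. HTR3A, CNR1 and NDNF are at 0 in the ADARB2 interneurons of sevoflurane replicate 3, while IL1RAPL2 is at 112 CPM there and at 927 to 1256 CPM in the other 5 libraries.

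Genes that the gate did not use also differed between ADARB2 and LHX6 interneurons of the same library, and are given as a description because the cells were chosen by their counts. ADRA1B, an adrenergic receptor, was higher in ADARB2 interneurons of all 6 libraries, with a mean of 127 CPM against 6.30 CPM in LHX6 interneurons, a mean within-library log2 ratio of 3.57. PDE3A, a cyclic nucleotide phosphodiesterase, averaged 816 CPM against 57.6 CPM (log2 3.50). KCNT2, a sodium-activated potassium channel, averaged 839 CPM against 85.0 CPM (log2 3.28). SORCS3, a sorting receptor, averaged 873 CPM against 111 CPM (log2 2.94). CXCL14, a chemokine of caudal interneurons, averaged 59.6 CPM against 9.05 CPM (log2 2.19). On the other side stood SOX6, a transcription factor of medial interneurons, at 31.7 CPM against 336 CPM, and GRIK3, a kainate receptor subunit, at 28.2 CPM against 305 CPM in LHX6 interneurons.

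Cells just inside the gate, with 5 or 6 ADARB2 UMIs, numbered 121. They had a median of 5489 UMIs, NPAS1 in 52.1% and TNFAIP8L3 in 46.3% of cells. Cells that met every other limit with 3 or 4 ADARB2 UMIs numbered 161. These had a median of 4939 UMIs, NPAS1 in 38.5% and TNFAIP8L3 in 26.7% of cells.

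ADARB2 interneurons made up 1.42%, 0.953% and 1.28% of barcodes with at least 2000 UMIs in the sevoflurane libraries, against 1.89%, 1.93% and 1.54% in the control libraries. All 3 sevoflurane libraries lay below all 3 control libraries. The difference was -0.569 percentage points, with an exact two-sided permutation p of 0.1, the smallest that 3 libraries against 3 allow. The exact 95% binomial interval, which covers counting error only, ran from 0.717 to 1.24% in sevoflurane replicate 2 and began at 1.26% or above in each control library. Those of sevoflurane replicates 1 and 3 overlapped the control intervals. Without sevoflurane replicate 3 the difference was -0.600 points (p = 0.2 in the exact permutation test, the smallest then possible). The gate asks for a fixed number of ADARB2 UMIs, and the ADARB2 level of the gated cells was itself lower in each sevoflurane library. Fewer cells of the class and less ADARB2 RNA per cell therefore cannot be told apart here.

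Among gated interneurons of both kinds, ADARB2 interneurons made up 30.0%, 27.7% and 16.1% in the sevoflurane libraries, against 30.2%, 26.2% and 31.6% in the control libraries. These ranges overlapped, and sevoflurane replicate 3 was the low one. The difference was -4.75 percentage points (exact two-sided permutation p = 0.4), and -0.493 points without sevoflurane replicate 3 (p = 0.8). In that library LHX6 interneurons made up 6.67% of barcodes with at least 2000 UMIs, against 2.49 to 5.43% in the other 5.

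**Figure D2:**
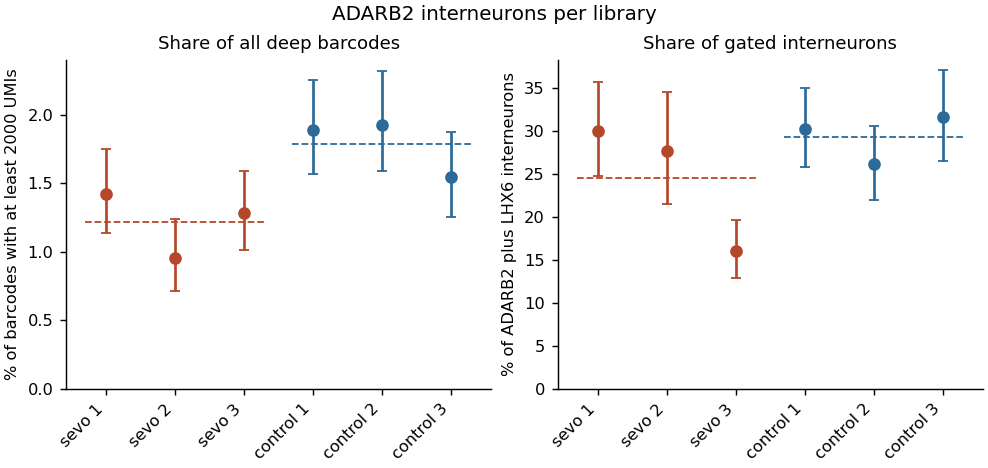
ADARB2 interneurons as a percentage of barcodes with at least 2000 UMIs (left) and of ADARB2 plus LHX6 interneurons (right), per library; points are libraries, bars are exact 95% binomial intervals and dashed lines are group means. The 3 sevoflurane libraries lie below the 3 control libraries in the left panel, and the groups overlap in the right panel.

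Clustering of the 548 cells gave 11 groups, described by their leading genes and not tested, since the same counts formed them. Clusters 5 and 7 are called LAMP5-like here, cluster 7 by SV2C, KIT and FGF13 more than by LAMP5 itself. Cluster 5 (40 cells) had LAMP5 in 47.5%, SV2C in 75.0% and KIT in 70.0% of cells and RELN in all of them, and was led by COL5A2, a fibrillar collagen, TOX3 and GLIS3. Cluster 7 (38 cells) had SV2C in 76.3%, KIT in 86.8% and LAMP5 in 13.2% of cells. FGF13, another LAMP5 marker, was in 97.5% of cluster 5 and 97.4% of cluster 7, but also in 55.3 to 73.2% of clusters 2, 3, 6 and 10. FGF13, LAMP5 and SV2C averaged 542, 11.4 and 49.5 CPM in ADARB2 interneurons and 642, 10.8 and 41.7 CPM in LHX6 interneurons. The other listed LAMP5 markers, KIT, NDNF and RELN, averaged higher in ADARB2 interneurons.

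The other clusters stayed unnamed. Cluster 10 (47 cells) was led by the relaxin-family receptor RXFP2, by NDNF and by RELN, which reached 6288 CPM there and 686 CPM in the other cells. It had IL1RAPL2 in every cell, LAMP5 in 8.51% and KIT in 4.26%. Cluster 3 (71 cells) was led by FREM2 and SYT10, a synaptotagmin, and had SLC17A8, the vesicular glutamate transporter of some cholecystokinin cells, in 40.8% and HTR3A in 40.8% of cells. Cluster 4 (22 cells) was led by the parathyroid hormone receptor PTH2R and had VIP in 31.8% and CALB2, the calcium buffer calretinin, in 54.5% of cells. Cluster 2 (74 cells) was led by DIAPH3 and COL19A1 and had TNFAIP8L3 in 94.6% of cells. Cluster 1 (66 cells) was led by IL12RB2 and ZNF804A, cluster 6 (70 cells) by WDR49 and TRPM3, cluster 9 (35 cells) by ITIH5 and RXRG among genes with a symbol, and cluster 11 (23 cells) by CCBE1 and THSD7B. Cluster 8 (62 cells) was led by IQGAP2 and CREB5. It held 16 of the 23 marked doublets and had the oligodendrocyte gene ST18 among its 10 leading genes.

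Sevoflurane replicate 3 held no cell of clusters 2, 3, 4 and 10, which took 40.0% and 38.9% of the cells in sevoflurane replicates 1 and 2, against 33.1%, 57.3% and 56.6% in the control libraries. Clusters 7, 8, 9 and 11 took 79.7% of its cells. They took 16.5% and 29.6% in sevoflurane replicates 1 and 2, against 31.4%, 10.9% and 15.2% in controls. The LAMP5-like clusters 5 and 7 took 11.8%, 5.56% and 29.1% of cells in the sevoflurane libraries, against 19.8%, 7.27% and 10.1% in the control libraries. These ranges overlapped.

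**Figure D3:**
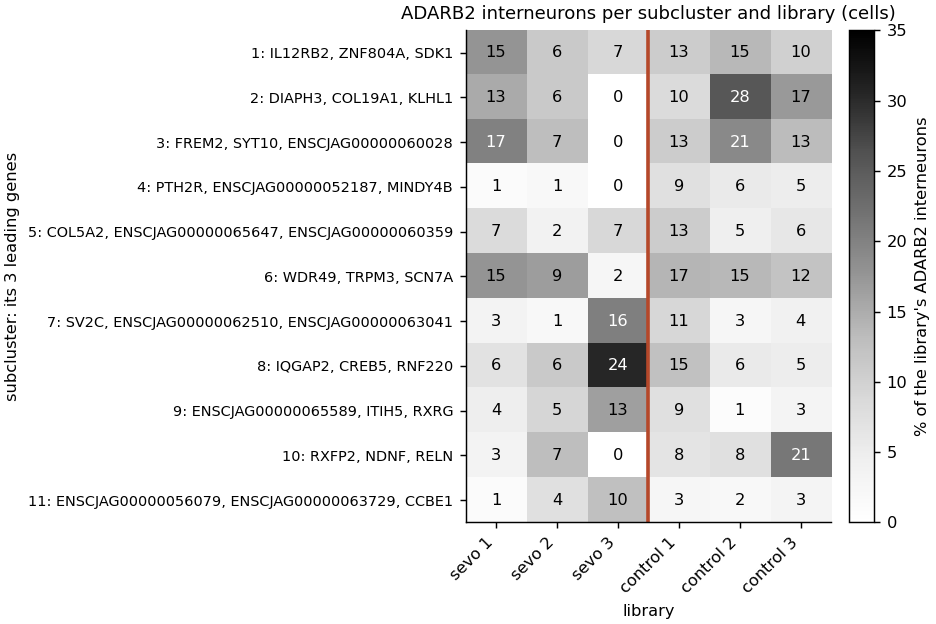
Number of ADARB2 interneurons in each of 11 subclusters (rows, with 3 leading genes each) and library (columns, sevoflurane left of control); shading is the percentage of the library's cells. Sevoflurane replicate 3 has no cell in clusters 2, 3, 4 and 10, and 63 of its 79 cells are in clusters 7, 8, 9 and 11.

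Pairs of marker genes are given as a description, since the same counts formed the clusters, and not every pair looked up is shown. NDNF was found in 21.4% of the 220 cells with a RELN UMI and in 2.13% of the others, with median depths of 7947 and 7124 UMIs. SV2C was found in 41.0% of the 134 cells with KIT and in 9.66% of the others, although cells with KIT were shallower (6556.5 and 7624 UMIs). HTR3A was found in 23.7% of the 253 cells with IL1RAPL2 and in 2.71% of the others (8532 and 6412 UMIs). KIT went the other way, at 12.6% of cells with IL1RAPL2 and 34.6% of the others. Some other pairs divided the cells less. KIT was found in 32.3% of cells with RELN and 19.2% of the others. VIP was found in 10.9% of cells with CALB2 and 7.73% of the others, and TNFAIP8L3 in 55.2% of cells with NPAS1 and 59.9% of the others.

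Against this makeup, sevoflurane and control libraries were compared gene by gene on the summed UMIs. Of 8128 genes tested with edgeR's quasi-likelihood test and Benjamini-Hochberg adjustment over all of them, 0 (0%) passed an adjusted p of 0.05. At an unadjusted p under 0.05 there were 716 genes (8.81%), 345 higher (4.24%) and 371 lower (4.56%) after sevoflurane. DESeq2 called 17 genes (0.209%), 4 higher and 13 lower (0.16%). Without sevoflurane replicate 3, edgeR called 12 of 8563 genes (0.14%), 3 higher and 9 lower, and without control replicate 1 it called 2 genes. A total of 8 genes, all lower, passed both by DESeq2 and by edgeR without sevoflurane replicate 3: SPRED1, SPRED2, ANKRD55, DPP10, NRP1, RELN, SLC1A2 and TNFAIP8L3. Of these, DPP10 and NRP1 lie outside the rule for named genes. The 3 sevoflurane values lay wholly above the 3 control values for 821 genes (10.1%) and wholly below them for 476 genes (5.86%), 16% in either direction. In LHX6 interneurons these shares were 9.69% and 5.21%. The counts of non-overlapping genes below are to be read against them.

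RELN was lower in every sevoflurane library than in any control library. It had 599, 997 and 369 CPM in the sevoflurane libraries, against 1675, 1532 and 2333 CPM in the control libraries. The means were 655 ± 318 CPM after sevoflurane and 1847 ± 427 CPM in controls (SD, n = 3 libraries each), and the groups did not overlap. The change was log2 -1.56 ± 0.31 (SE), adjusted p = 0.157 by edgeR, which does not pass. It passed without sevoflurane replicate 3 (log2 -1.28 ± 0.21, adjusted p = 0.0420) and by DESeq2 (adjusted p = 0.000848); over all alternatives the log2 value lay between -1.99 and -1.28 and the adjusted p between 5.64e-16, with no filter on low counts, and 0.682. RELN was found in 29.4%, 25.9% and 19.0% of cells after sevoflurane, against 39.7%, 33.6% and 45.5% in controls, with each cell thinned to 2000 UMIs. That difference of -14.8 points had an exact permutation p of 0.1, or 0.4 adjusted over 12 markers.

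RELN was also read within the clusters, as a description. Here and for the genes below, cluster levels pool the cells of a group's libraries, which contribute unequally. RELN was lower in the sevoflurane cells in 10 of 11 clusters. In 2 of these 10 it rests on few UMIs, with 1 UMI after sevoflurane and 6 in controls in cluster 1, and 0 UMIs after sevoflurane and 1 in controls in cluster 4, which held 2 sevoflurane cells. In cluster 10 it stood at 3816 CPM in 10 sevoflurane cells and 6978 CPM in 37 control cells. These cells numbered 3, 7 and 0 in sevoflurane replicates 1 to 3 and 8, 8 and 21 in control replicates 1 to 3. In cluster 5 RELN stood at 3649 CPM after sevoflurane and 5074 CPM in controls, and in cluster 6 at 347 CPM after sevoflurane and 1233 CPM in controls. Cluster 11, with 23 cells, went the other way, at 442 CPM after sevoflurane and 151 CPM in controls. Clusters 5 and 10, where RELN was highest, held 11.8%, 16.7% and 8.86% of the cells after sevoflurane, against 17.4%, 11.8% and 27.3% in controls, which overlap.

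Other barcodes differed as well. In barcodes that were neither ADARB2 nor LHX6 interneurons it had 40.0, 36.5 and 44.5 CPM in the sevoflurane libraries, against 87.1, 98.6 and 129 CPM in the control libraries, and the groups did not overlap. Oligodendrocytes gated by their own markers, which should lack RELN, had a RELN UMI in 3.73%, 4.95% and 3.36% of thinned cells after sevoflurane and 11.5%, 9.58% and 8.80% in controls, at median depths of 2366.5 to 2674 UMIs. The part of this background in the difference was not tested. LHX6 interneurons of the same libraries had 459.9, 544 and 289 CPM in the sevoflurane libraries, against 515, 488 and 402 CPM in the control libraries. These values overlapped (log2 -0.17 ± 0.22). The difference of the change in ADARB2 interneurons from that in LHX6 interneurons was -1.45 ± 0.25 on the log2 scale (limma on within-library differences, adjusted p = 0.303 over 8088 genes).

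**Figure D4:**
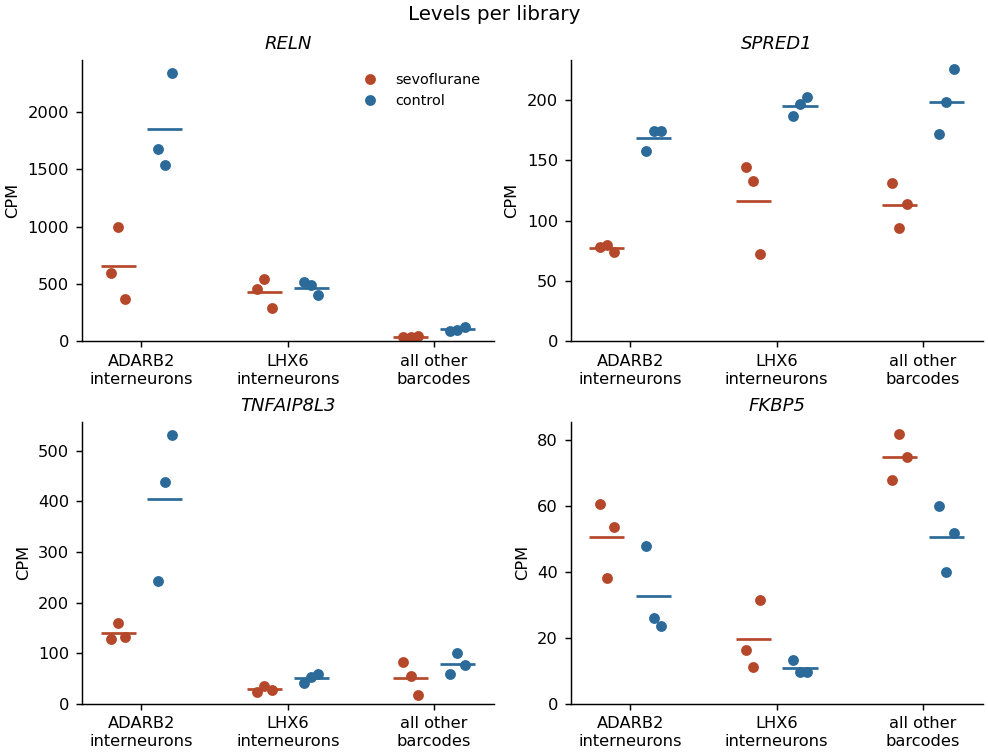
CPM of RELN, SPRED1, TNFAIP8L3 and FKBP5 per library in ADARB2 interneurons, LHX6 interneurons and all other barcodes, sevoflurane (left points) beside control (right points), with lines at group means. RELN separates the groups in ADARB2 interneurons (369 to 997 CPM after sevoflurane, 1532 to 2333 CPM in controls) and overlaps in LHX6 interneurons; SPRED1 is lower after sevoflurane in all 3 sets of cells.

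SPRED1 had the smallest p of all genes. This inhibitor of Ras and ERK signalling, which brings neurofibromin to the membrane, had 77.9, 80.2 and 73.7 CPM in the sevoflurane libraries, against 158, 174 and 174 CPM in the control libraries. The libraries of a group lay close together and the groups far apart (log2 -1.19 ± 0.15 (SE), adjusted p = 0.0730 by edgeR). The value passed without sevoflurane replicate 3 (log2 -1.16 ± 0.18, adjusted p = 0.0322) and by DESeq2 (adjusted p = 0.00622), and its adjusted p ranged from 2.05e-06 to 0.469 over the alternatives. SPRED1 was lower after sevoflurane in 10 of 11 clusters, in cluster 4 on 2 sevoflurane cells, and in cluster 9 it stood at 67.4 CPM after sevoflurane and 65.8 CPM in controls. It was lower in LHX6 interneurons too, without overlap (log2 -0.80 ± 0.23), and other barcodes had 131, 94.2 and 114 CPM after sevoflurane and 172, 198 and 225 CPM in controls.

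SPRED2, of the same inhibitor family, had 61.8, 38.1 and 77.4 CPM after sevoflurane and 127, 159 and 151 CPM in controls (log2 -1.35 ± 0.23 (SE), adjusted p = 0.118). ETV5, an ETS transcription factor that ERK signalling is known to induce, had 21.5, 12.03 and 12.9 CPM after sevoflurane and 50.1, 54.2 and 87.1 CPM in controls (log2 -2.03 ± 0.33 (SE), adjusted p = 0.118). Neither gene overlapped between the groups. DESeq2 called both, at an adjusted p of 0.00681 for SPRED2 (1.14e-07 to 0.477 over the alternatives) and 0.00622 for ETV5 (2.73e-08 to 0.469). In LHX6 interneurons SPRED2 overlapped between groups (log2 -0.69 ± 0.47) and ETV5 did not (log2 -1.19 ± 0.38).

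TNFAIP8L3, a phosphoinositide transfer protein found in 313 of the 548 cells, had 128, 160.4 and 133 CPM in the sevoflurane libraries, against 242, 439 and 531 CPM in the control libraries. Control replicate 1 was the lowest control, and still above all sevoflurane libraries (log2 -1.59 ± 0.26 (SE), adjusted p = 0.118). It was lower after sevoflurane in 11 of 11 clusters, in cluster 10 at 129 CPM in 10 sevoflurane cells and 642 CPM in 37 control cells. In cluster 5 the values were nearly equal, at 313 CPM after sevoflurane and 315 CPM in controls, and in cluster 7 they were 272 CPM after sevoflurane and 299.5 CPM in controls. Cluster 11 held 0 UMIs after sevoflurane and 1 in controls, and cluster 4 held 0 after sevoflurane and 4 in controls. It passed without sevoflurane replicate 3 (log2 -1.56 ± 0.27, adjusted p = 0.0420), without control replicate 1 (log2 -1.85 ± 0.19, adjusted p = 0.0124) and by DESeq2 (adjusted p = 0.00022), with adjusted p from 7.08e-14 to 0.477 over the alternatives. ENSCJAG00000055102, a feature with no symbol chosen after its values were seen, ran beside it with 148, 174 and 136 CPM after sevoflurane and 200.3, 458 and 518 CPM in controls; whether the 2 share reads was not tested, and the labels do not say whether counting used strand.

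ANKRD55, an ankyrin repeat protein, was at 1.34, 8.02 and 1.84 CPM after sevoflurane and 36.2, 29.2 and 33.6 CPM in controls (log2 -3.28 ± 0.49 (SE), adjusted p = 0.118), the lowest of these genes in counts, with 1 to 4 UMIs in each sevoflurane sum. Its log2 value lay between -4.34 (without sevoflurane replicate 2) and -2.81 (without sevoflurane replicate 1) over the alternatives. CPNE4, a calcium-dependent lipid-binding protein, had 114, 56.2 and 49.7 CPM after sevoflurane and 177, 386 and 258 CPM in controls (log2 -1.91 ± 0.34 (SE), adjusted p = 0.118). CTNNAL1, related to alpha-catenin, had 107, 104 and 79.2 CPM after sevoflurane and 168, 237 and 192 CPM in controls (log2 -1.09 ± 0.19 (SE), adjusted p = 0.118). DESeq2 called all 3, at an adjusted p of 0.00681 for ANKRD55 (3.93e-08 to 0.469 over the alternatives), 0.00022 for CPNE4 (1.23e-17 to 0.491) and 0.0229 for CTNNAL1 (1.05e-05 to 0.477). CTNNAL1 differed in direction elsewhere: other barcodes had 122, 139 and 107 CPM after sevoflurane and 91.6, 73.9 and 91.2 CPM in controls.

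SLC1A2, a glutamate transporter that is mainly astrocytic, had 339.7, 343 and 230.3 CPM in the sevoflurane libraries, against 539, 595 and 622 CPM in the control libraries (log2 -1.003 ± 0.18 (SE), adjusted p = 0.118). DESeq2 called it (adjusted p = 0.00681, from 7.24e-06 to 0.540 over the alternatives). It is 1 of 6 astrocyte markers and makes up most of their sum, which was 345 to 385 CPM in ADARB2 interneurons after sevoflurane and 622 to 692 CPM in controls. The other 5 markers summed to 45.7, 14.0 and 114 CPM after sevoflurane, against 83.1, 82.3 and 69.7 CPM in controls, which overlap. Among them GFAP was lower without overlap, at 8.06, 2.01 and 9.21 CPM after sevoflurane and 18.1, 19.8 and 14.9 CPM in controls. SLC1A3, ALDH1L1, AQP4 and GJA1 overlapped between the groups. SLC1A3 made up most of the sum in sevoflurane replicate 3, at 95.8 CPM, against 42.3 to 53.3 CPM in controls. AQP4 was at most 4.17 CPM and GJA1 at most 2.69 CPM in any library. In all other barcodes the 6 astrocyte markers, SLC1A2 among them, summed to 774 to 980 CPM after sevoflurane and 955 to 1750 CPM in controls. GFAP was lower without overlap there too, at 27.6, 20.7 and 18.3 CPM after sevoflurane and 39.7, 59.8 and 77.3 CPM in controls. In LHX6 interneurons GFAP had 9.37, 7.11 and 3.52 CPM after sevoflurane and 11.8, 15.2 and 30.2 CPM in controls. The part of astrocyte RNA in the SLC1A2 difference was not tested.

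On the higher side, MSH4, a homologue of DNA mismatch repair proteins known from meiosis, had 128, 84.2 and 131 CPM in the sevoflurane libraries, against 38.3, 46.9 and 51.0 CPM in the control libraries, with no overlap (log2 1.28 ± 0.22 (SE), adjusted p = 0.118). It was higher after sevoflurane in all 11 clusters, and in other barcodes (196, 111 and 214 CPM after sevoflurane and 65.8, 93.0 and 82.7 CPM in controls). Some clusters rest on little: cluster 4 on 2 sevoflurane cells, cluster 9 on 1 control UMI, and clusters 7 and 11 on 3 control UMIs each. KCNE2, an ancillary potassium channel subunit, had 109, 74.2 and 103 CPM after sevoflurane and 41.5, 29.2 and 42.3 CPM in controls (log2 1.29 ± 0.23 (SE), adjusted p = 0.118), and was higher in LHX6 interneurons as well (log2 0.97 ± 0.19). KCNE2 was lower after sevoflurane in 2 of 11 clusters. DESeq2 called both, at an adjusted p of 0.0254 for MSH4 (2.26e-05 to 0.477 over the alternatives) and 0.0475 for KCNE2 (7.16e-05 to 0.477). SELENOI, which makes phosphatidylethanolamine, had 28.2, 40.1 and 46.1 CPM after sevoflurane and 9.59, 14.6 and 11.2 CPM in controls (log2 1.59 ± 0.32 (SE), adjusted p = 0.180). TMEM64, a membrane protein, had 72.5, 94.3 and 94.0 CPM after sevoflurane and 40.5, 45.9 and 49.8 CPM in controls (log2 0.86 ± 0.19 (SE), adjusted p = 0.201), while LHX6 interneurons were at log2 -0.10 ± 0.21. The rule also named PXDNL (log2 0.99 ± 0.21), DHDH (log2 1.67 ± 0.36), NUP210L (log2 1.49 ± 0.34) and AGBL3 (log2 1.49 ± 0.35), which did not overlap between groups and had adjusted p of 0.198 to 0.225. None of these 4 passed by DESeq2.

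**Figure D5:**
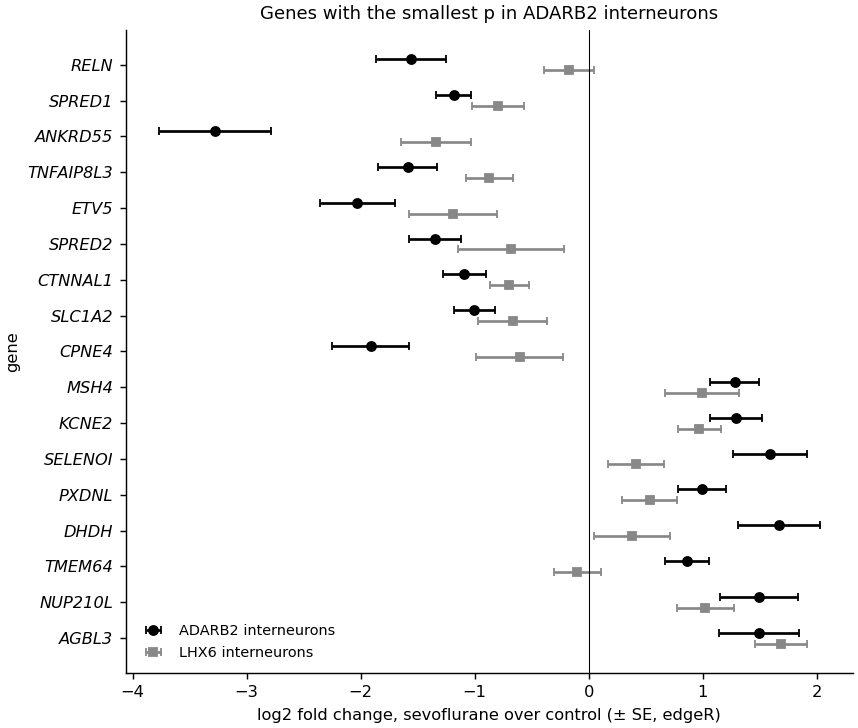
Log2 fold changes of sevoflurane over control (± SE, edgeR) in ADARB2 interneurons (black circles) and LHX6 interneurons (grey squares) for RELN and the 16 genes with the smallest p, 8 per direction, among genes with a symbol and a mean log2 CPM of at least 4. RELN is at -1.56 in ADARB2 and -0.17 in LHX6 interneurons; of the others only TMEM64 has opposite signs in the 2 classes.

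No gene's change differed from that in LHX6 interneurons by limma (0 of 8088 at an adjusted p of 0.05, 0%; 445 at an unadjusted p under 0.05), and this count was 0 under each alternative run for it, DESeq2 not being among them. LHX6 interneurons had 0 of 11001 genes called by edgeR, with 905 at an unadjusted p under 0.05. After RELN, the smallest p among lower differences were those of CDC14B (-0.76 ± 0.15), ABCA13 (-1.91 ± 0.38), GREB1L (-0.76 ± 0.16) and LHFPL3 (-0.77 ± 0.18). ABCA13 overlapped between groups in ADARB2 interneurons (log2 0.28 ± 0.36) and separated them in LHX6 interneurons (log2 2.30 ± 0.27), where it was higher after sevoflurane. Among higher differences stood ALK, a receptor tyrosine kinase, at 0.84 ± 0.14 (adjusted p = 0.303). ALK had 736, 507 and 641 CPM in the sevoflurane libraries, against 690.3, 716 and 625 CPM in the control libraries, which overlap, and LHX6 interneurons were at log2 -1.03 ± 0.14. SOCS2, an inhibitor of cytokine signalling, differed by 0.88 ± 0.18, AK5 by 0.70 ± 0.15, PTPRG by 0.69 ± 0.15 and DNAH7 by 0.89 ± 0.19, all with an adjusted p of 0.674.

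FKBP5, the gene of the series title, is a co-chaperone that dampens the glucocorticoid receptor and is induced by it. In ADARB2 interneurons it had 60.4, 38.1 and 53.4 CPM in the sevoflurane libraries, against 47.9, 26.1 and 23.6 CPM in the control libraries. The highest control library lay above the lowest sevoflurane library, and the sums rest on few UMIs. The change was log2 0.58 ± 0.31 (SE), adjusted p = 0.642 by edgeR, and the adjusted p lay between 0.39 and 1.00 over the alternatives. LHX6 interneurons overlapped as well (log2 0.86 ± 0.38), while barcodes outside both interneuron classes separated the groups, with 67.9, 81.8 and 74.8 CPM after sevoflurane and 59.9, 39.9 and 51.7 CPM in controls. Of 17 glucocorticoid response genes, 6 were measured well enough to test and 0 passed, with 1 lower and 0 higher without overlap and a median log2 of 0.06 (-0.10 without sevoflurane replicate 3), against 0.01 over all 8128 genes. SGK1, a kinase that glucocorticoids induce, was the lower one, with 310.2, 267 and 334 CPM after sevoflurane and 434, 489 and 566 CPM in controls (log2 -0.77 ± 0.16 (SE), adjusted p = 0.180). The receptor genes NR3C1 (log2 0.34 ± 0.24) and NR3C2 (log2 0.01 ± 0.17) and ZBTB16 (log2 0.11 ± 0.21) overlapped between the groups.

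GABA-A receptor subunits were represented by 11 tested genes of 14. None passed, 9 were negative (against 3936 of all 8128 genes tested), and their median log2 was -0.32 (-0.10 without sevoflurane replicate 3). GABRB1 had 780.2, 764 and 868 CPM after sevoflurane and 1038, 945 and 895 CPM in controls (log2 -0.32 ± 0.14 (SE), adjusted p = 0.564), without overlap. GABRB2 stood higher, at 718, 688 and 1004 CPM after sevoflurane and 663, 618 and 671 CPM in controls (log2 0.24 ± 0.17 (SE), adjusted p = 0.735). GABRA2 (log2 -0.33 ± 0.31) overlapped. GABRA4 and GABRG3, chosen after their values were seen, were the other 2 without overlap on the lower side, at log2 -0.50 ± 0.20 and log2 -0.41 ± 0.14. For GABA synthesis, packaging and uptake, 8 of 9 genes were tested, 0 passed and 0 separated the groups, with a median log2 of -0.09 (-0.27 without sevoflurane replicate 3). GAD2 (log2 -0.33 ± 0.19), GAD1 (log2 0.09 ± 0.19), ABAT, which degrades GABA (log2 -0.15 ± 0.15), and the chloride importer SLC12A2 (log2 0.14 ± 0.26) were its highest members by UMIs.

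Of 17 ionotropic glutamate receptor genes, 16 were tested and 0 passed; 6 were lower without overlap and 0 higher, with a median log2 of -0.05 (-0.18 without sevoflurane replicate 3). The kainate subunit GRIK2 (log2 0.05 ± 0.15) and the AMPA subunit GRIA1 (log2 0.02 ± 0.15) overlapped between groups. GRIK1 had 1422, 1576 and 385 CPM after sevoflurane and 1404, 1521 and 2135 CPM in controls, with sevoflurane replicate 3 far below the rest. GRIA3, an AMPA subunit chosen after its values were seen, had 249.8, 207 and 203 CPM after sevoflurane and 295, 375 and 367 CPM in controls (log2 -0.71 ± 0.16 (SE), adjusted p = 0.201). Background potassium, HCN and sodium leak channels had 8 of 12 genes tested, 0 passed, and a median log2 of 0.21 (0.06 without sevoflurane replicate 3). NALCN, the leak channel (log2 -0.02 ± 0.14), and its partner UNC79 (log2 -0.22 ± 0.14) overlapped, and UNC80 stood slightly higher at 375, 401 and 359 CPM after sevoflurane and 314, 299 and 329.7 CPM in controls (log2 0.20 ± 0.14 (SE), adjusted p = 0.719).

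Voltage-gated potassium channels had 12 of 17 genes tested and 0 passed, with 2 lower without overlap and a median log2 of -0.08 (-0.15 without sevoflurane replicate 3). KCND2, an A-type channel, was lower at 1042, 1153 and 1343 CPM after sevoflurane and 1776, 1517 and 1593 CPM in controls (log2 -0.53 ± 0.15 (SE), adjusted p = 0.349), while KCNQ5 (log2 0.25 ± 0.19), KCNQ3 (log2 -0.06 ± 0.16) and KCNC2 (log2 -0.34 ± 0.28) overlapped. All 18 perineuronal and synaptic adhesion genes were tested and 0 passed. Of these, 16 were negative (against 3936 of all 8128 genes tested), and 6 were lower and 1 higher without overlap. The median log2 was -0.39 (-0.21 without sevoflurane replicate 3, and -0.25 in LHX6 interneurons). NRXN3, a presynaptic adhesion molecule (log2 -0.07 ± 0.19), and CNTNAP2 (log2 0.01 ± 0.22) overlapped. ROBO1, a guidance receptor, had 4099.7, 4713 and 1524 CPM after sevoflurane and 4740.4, 4307 and 4364 CPM in controls, low in sevoflurane replicate 3 alone. TENM2, a teneurin chosen after its values were seen, had 2209, 2126 and 1279 CPM after sevoflurane and 2519, 4189 and 4091 CPM in controls (log2 -1.003 ± 0.25 (SE), adjusted p = 0.263).

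Of 9 reelin and ERBB4 signalling genes, all were tested, 0 passed, and RELN was the only one without overlap; the median log2 was -0.19 (-0.20 without sevoflurane replicate 3). The intracellular reelin adaptor DAB1 was at log2 -0.30 ± 0.17, the neuregulin receptor ERBB4 at log2 -0.12 ± 0.16 and the ligand NRG3 at log2 -0.16 ± 0.16. The reelin receptors LRP8 (log2 -0.28 ± 0.19) and VLDLR (log2 -0.19 ± 0.26), chosen after their values were seen, overlapped too. Among 16 interneuron transcription factors, 11 were tested and 0 passed, with 2 lower without overlap: NPAS3 at 3706, 3331 and 2583 CPM after sevoflurane and 4385, 4762 and 4969 CPM in controls (log2 -0.61 ± 0.17 (SE), adjusted p = 0.320) and ZEB2 at log2 -0.36 ± 0.15. NPAS1 (log2 0.15 ± 0.27) and PROX1 (log2 0.11 ± 0.35) overlapped.

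Only 2 of 16 immediate early genes could be tested, and 0 passed, but both were lower without overlap. HOMER1, a postsynaptic scaffold, had 103, 122 and 101 CPM after sevoflurane and 134, 166 and 142 CPM in controls (log2 -0.50 ± 0.16 (SE), adjusted p = 0.384), and NR4A1, a nuclear receptor that neuronal activity induces, had 8.06, 8.02 and 9.21 CPM after sevoflurane and 26.6, 18.8 and 34.8 CPM in controls (log2 -1.70 ± 0.38 (SE), adjusted p = 0.201). EGR2, EGR3, EGR4, ARC, NPAS4 and IER2 were at 0 in all 6 sums, which allows up to 3.13 to 6.02 CPM per library, and FOS was at most 10.7 CPM. Of 19 circadian clock genes, 10 were tested and 0 passed, with 2 lower without overlap. These were the repressors CRY1, at 28.2, 34.1 and 31.3 CPM after sevoflurane and 59.7, 65.7 and 73.4 CPM in controls (log2 -1.15 ± 0.21 (SE), adjusted p = 0.124), and PER2, at 14.8, 6.02 and 3.69 CPM after sevoflurane and 16.0, 35.4 and 24.9 CPM in controls (log2 -1.58 ± 0.49 (SE), adjusted p = 0.381), both chosen after their values were seen. RORA (log2 0.03 ± 0.20), NPAS2 (log2 -0.11 ± 0.16), CLOCK (log2 0.05 ± 0.19) and NR1D2 (log2 0.66 ± 0.32) overlapped. Heat shock proteins and chaperones had 10 of 19 genes tested, 0 passed and 0 separated the groups, with a median log2 of -0.25 (-0.02 without sevoflurane replicate 3). HSP90AA1 (log2 -0.05 ± 0.21), HSPA4L (log2 -0.21 ± 0.32), HSP90AB1 (log2 -0.34 ± 0.31) and HSPA4 (log2 -0.41 ± 0.20) were its highest members by UMIs.

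Neuropeptides were sparse, with 2 of 13 genes tested and 0 passed. NPY had 16.1, 14.0 and 3.69 CPM after sevoflurane and 8.52, 13.6 and 21.2 CPM in controls, VIP 12.1, 14.0 and 7.37 CPM after sevoflurane and 12.8, 18.8 and 11.2 CPM in controls, SST 5.37, 14.0 and 9.21 CPM after sevoflurane and 12.8, 14.6 and 19.9 CPM in controls and PENK 6.71, 10.0 and 1.84 CPM after sevoflurane and 8.52, 10.4 and 8.71 CPM in controls. Oligodendrocytes had an NPY UMI in 8.40% of thinned cells after sevoflurane and 10.1% in controls, more than the 0 to 2.35% of ADARB2 interneurons after sevoflurane and 1.65 to 6.06% in controls, so NPY is not above background here. Of serotonin, acetylcholine and cannabinoid receptors, 6 of 13 genes were tested and 0 passed. HTR3A was the lower gene without overlap (log2 -1.64 ± 0.55 (SE), adjusted p = 0.414); it was also at 0 in sevoflurane replicate 3, which held no cell of cluster 3. HTR2C had 869, 217 and 3.69 CPM after sevoflurane and 75.6, 155 and 159 CPM in controls. In barcodes outside both interneuron classes it was also highest in sevoflurane replicate 1, at 447 CPM. CHRNA7 was at log2 0.10 ± 0.25 and CHRM2 at log2 -0.82 ± 0.54.

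With every cell thinned to 2000 UMIs, the median number of genes detected per ADARB2 interneuron was 1237, 1255.5 and 1250 in the sevoflurane libraries, against 1214, 1220 and 1217 in the control libraries. The groups did not overlap (difference 30.5 genes, exact two-sided permutation p = 0.1). Without thinning they did, at 3204, 3231 and 2681 genes after sevoflurane and 2792, 3101.5 and 2949 genes in controls (exact p = 0.7). LHX6 interneurons showed a like difference when thinned, with 1240, 1256 and 1242 genes after sevoflurane and 1216, 1233 and 1223.5 genes in controls (exact p = 0.1).

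The share of thinned cells with a marker UMI was compared for 12 markers, none of which can go below an exact p of 0.1. CNR1 was found in 0 of 85, 0 of 54 and 0 of 79 thinned cells after sevoflurane, which allows shares of up to 3.53%, 5.56% and 3.80%, and in 2.48%, 3.64% and 3.03% of cells in controls (exact permutation p = 0.1, adjusted 0.4). These limits are for thinned cells with a UMI, not for cells that express the gene. Without thinning, CNR1 was found in 7.06%, 13.0% and 0% of cells after sevoflurane, against 4.13%, 12.7% and 13.1% in controls (exact permutation p = 0.6). HTR3A was found in 2.35%, 3.70% and 0% after sevoflurane, against 4.13%, 4.55% and 6.06% in controls (exact p = 0.1, adjusted 0.4). VIP, LAMP5, CALB2 and SV2C had an exact p of 0.6 to 1.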

How the data were processed

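Hippocampal cells of 3 sevoflurane and 3 control libraries were measured by 10x Genomics droplet RNA-seq. The authors deposited whole UMI counts for each gene in each barcode, not normalized, from Cell Ranger (6.1.1 per the file headers). The submitters' processing notes also name CASAVA 1.8 and Seurat; no source used here names a genome build. The 6 filtered matrices held 41164947 to 47886816 UMIs and 7103 to 8577 barcodes each, of which 13 to 27 were shared by any pair of libraries. Of 29320 features, 15188 carried a symbol in the files, 1397 got one from a gene name table and 12735 kept their ID.

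Members and gene lists were chosen with earlier results of these data known. LHX6 interneurons were gated with at least 1 LHX6 UMI, at least 3 LHX6 plus NXPH1 UMIs and the same limits on depth, GAD and SLC17A7 UMIs. ADARB2 UMIs were allowed in them below the LHX6 plus NXPH1 count. UMIs were summed per library and class and tested with edgeR 4.0.16 (TMM, quasi-likelihood, Benjamini-Hochberg over all tested genes, R 4.3.3); genes passed edgeR's default filter on low counts. Changes of the 2 classes were compared with limma 3.58.1 on the within-library difference of log2 CPM. DESeq2 1.42.0 was an alternative, as were no count filter, another scaling, at least 10 ADARB2 UMIs, doublets removed (score over 0.19, scrublet in scanpy 1.11.5), a replicate block and each library left out. Shares were compared by exact permutation over the 20 arrangements of 6 libraries (scipy 1.17.1). Subclusters came from 1500 variable genes, 20 components, 15 neighbours and Leiden resolution 0.8 (9 clusters at 0.5 and 16 at 1.2). The edgeR and limma tests were checked on simulated counts, and DESeq2 was not. Named genes were those past the threshold, and otherwise the 8 with the smallest p per direction among genes with a symbol and a mean log2 CPM of at least 4, the 5 per direction with the smallest p for the difference, and the 4 with the most UMIs of each list; a gene outside this rule is said to be chosen after its values were seen. Figures' gene choices were made after the values were seen. Genome sequence was not used here, and some genes that the rule names are not reported here.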

Additional observations from a re-analysis of the deposited data

How the results depend on the processing

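The count of genes called in ADARB2 interneurons was 0 with edgeR and 0 with DESeq2's size factors as scaling, at least 10 ADARB2 UMIs, doublets removed or the replicate block. DESeq2 called 17 genes, and edgeR called 263 once low counts were kept in (19937 genes tested); the cause was not tested. Leaving out 1 library gave 0 to 12 calls, with 12 without sevoflurane replicate 3, 2 without control replicate 1 (TNFAIP8L3 and ENSCJAG00000055102) and 0 otherwise. Of 20 genes (the 16 named by p, RELN, SPRED3, DPP10 and NRP1), 13 passed with DESeq2, 20 with no filter, 8 without sevoflurane replicate 3 and 1 without control replicate 1, and none under the other alternatives. No gene differed from LHX6 interneurons under the alternatives run for that test, which leave out DESeq2.

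The labels do not tie replicate numbers across the groups. Deviations from the group mean correlated at -0.146, 0.057 and -0.148 between same-numbered libraries. Differently numbered libraries reached 0.244, for sevoflurane replicate 3 and control replicate 1. These values cannot show whether the libraries were paired, since deviations within a group constrain one another and genes are not independent. With the replicate block, 0 genes were called (581 at an unadjusted p under 0.05), the share of barcodes differed by -0.569 points (exact paired permutation p = 0.25, the smallest possible) and the share of gated interneurons by -4.75 points (p = 0.75). Leaving out 1 library, these ran from -0.690 to -0.437 and from -7.47 to -0.493 points. The barcode share differed by -0.497 points at 10 ADARB2 UMIs, -0.601 with doublets removed and -0.458 over all barcodes. The share with CCK, for which no feature carried the symbol, was not run. The share of cells with KIT differed by -0.06 points when thinned and by 5.28 points when not (exact p = 0.5); the cause was not tested. With 54 to 121 cells per library, genes of few UMIs could not be tested.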

Other observations

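The genes below were chosen after their values were seen, and none passed edgeR's quasi-likelihood test with Benjamini-Hochberg adjustment on all 6 libraries with the filter on low counts. IGFBP7 and ENSCJAG00000055931 did not pass that filter and were not tested on all 6. SPRED3, another member of the SPRED family, had 2.69, 2.01 and 3.69 CPM in the sevoflurane libraries, against 14.9, 34.4 and 18.7 CPM in the control libraries (log2 -3.01 ± 0.56 (SE), adjusted p = 0.124). Its sevoflurane sums held 1 or 2 UMIs each. It passed edgeR with no count filter (adjusted p = 3.63e-05, from 3.63e-05 to 0.495 over the alternatives). NF1, the neurofibromin that SPRED proteins bind, had 435, 429 and 378 CPM after sevoflurane and 593, 663 and 599 CPM in controls (log2 -0.64 ± 0.14 (SE), adjusted p = 0.201). Both were without overlap in LHX6 interneurons too, at log2 -1.42 ± 0.53 and log2 -0.29 ± 0.13. SPRY1, SPRY2, SPRY4, DUSP4, DUSP6, ETV1 and ETV4 were also looked up, and their values are not reported here. The lower genes given are therefore not a full set, and ERK signalling was not tested.

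Among receptors, FGFR2, for fibroblast growth factors, had 96.7, 70.2 and 101 CPM after sevoflurane and 147, 144 and 141 CPM in controls (log2 -0.74 ± 0.17 (SE), adjusted p = 0.214), while LHX6 interneurons were at log2 0.19 ± 0.31 and overlapped. NTRK2, the receptor of BDNF, had 653, 619.7 and 713 CPM after sevoflurane and 1147, 889 and 906 CPM in controls (log2 -0.63 ± 0.16 (SE), adjusted p = 0.271). NRP1, a semaphorin and VEGF co-receptor, had 43.0, 24.1 and 11.1 CPM after sevoflurane and 75.6, 116 and 123 CPM in controls (log2 -1.99 ± 0.35 (SE), adjusted p = 0.118). DPP10, an ancillary subunit of A-type potassium channels, had 959, 1149 and 1015 CPM after sevoflurane and 1766, 1565 and 1876 CPM in controls (log2 -0.80 ± 0.15 (SE), adjusted p = 0.124). All 4 were without overlap between the groups. NRP1 and DPP10 passed edgeR with no count filter, edgeR without sevoflurane replicate 3 and DESeq2, with adjusted p from 2.92e-12 to 0.540 for NRP1 and from 0.000322 to 0.675 for DPP10 over the alternatives.

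SPHKAP, an anchoring protein for protein kinase A, had 29.5, 16.0 and 38.7 CPM after sevoflurane and 82.0, 60.5 and 68.4 CPM in controls (log2 -1.36 ± 0.28 (SE), adjusted p = 0.180), also without overlap. PDE3A, high in ADARB2 interneurons as a class, had 518, 796 and 140.0 CPM after sevoflurane and 761, 1280 and 1399.9 CPM in controls, and overlapped. MMD2 had 21.5, 30.1 and 46.1 CPM after sevoflurane and 75.6, 74.0 and 61.0 CPM in controls (log2 -1.21 ± 0.27 (SE), adjusted p = 0.201), and was called as lower by edgeR without sevoflurane replicate 3.

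IGFBP7, a secreted protein known from blood vessels, had 169, 14.0 and 9.21 CPM after sevoflurane and 7.46, 4.17 and 6.22 CPM in controls, highest in sevoflurane replicate 1, and was called as higher by edgeR without sevoflurane replicate 3. PDE5A, a cyclic GMP phosphodiesterase, had 195, 184 and 59.0 CPM after sevoflurane and 68.2, 102 and 93.3 CPM in controls, and was also called as higher without that library. The feature ENSCJAG00000058761, which has no symbol, had 32.2, 18.05 and 109 CPM after sevoflurane and 7.46, 6.25 and 12.4 CPM in controls, and ENSCJAG00000060690 had 28.2, 36.1 and 31.3 CPM after sevoflurane and 6.39, 2.08 and 9.95 CPM in controls. DESeq2 called both as higher. Both were higher without overlap in LHX6 interneurons as well. ENSCJAG00000055931 had 48.3, 56.2 and 0 CPM after sevoflurane and 8.52, 12.5 and 7.47 CPM in controls, with 0 in sevoflurane replicate 3, and was called as higher without that library.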
